A study of Mus musculus with 10 samples.

Results

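The genes described here are the 7 mouse genes of the GET pathway, which inserts tail-anchored proteins into the membrane of the endoplasmic reticulum. They are Sgta, Bag6, Ubl4a, Get4, Get3, Get1 and Camlg, and they were taken by name from 21887 protein-coding genes of the RefSeq annotation. Each gene was given the peaks of the 8 deposited single-library lists whose summit, the base of highest pileup, lay from 5 kb before to 5 kb after its span. ChIP-seq, the sequencing of immunoprecipitated chromatin, recorded where XBP-1 lay on DNA in the liver of C57BL/6J mice, with an antibody that the labels name Xbp-1s. The groups were wild-type fasted mice (Fasted), wild-type fed mice (Fed), mice with a liver-specific knockout of Ern1 (Ern1-LKO) and wild-type control mice for that knockout (WT), with 2 libraries in each. There were also 2 input libraries of wild-type liver DNA. Ern1 encodes IRE1, the kinase and RNase that splices Xbp1 mRNA into the form that encodes the active factor XBP-1s. The labels give neither the length of the fast, the feeding state of the WT and Ern1-LKO mice, the Cre driver of the knockout, nor the sex or age of the mice. They do not say whether the libraries of a group came from separate animals, so part of the scatter between libraries may be technical. A permutation p-value here is the share of assignments of these libraries to the groups with a difference at least as large. It speaks for these libraries only. The Ern1 deletion itself cannot be checked in peak lists.

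Tail-anchored proteins carry a single membrane-spanning segment at the very C-terminus, which leaves the ribosome only when translation ends, so they are inserted after translation. SGTA, a small co-chaperone, captures the released protein, and a complex of BAG6, UBL4A and GET4 hands it to the ATPase GET3. GET3 carries it to the membrane receptor formed by GET1 and CAMLG. XBP-1s is known in liver as an activator of genes for protein translocation, folding and degradation at the endoplasmic reticulum.

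The promoters of 4 members follow, chosen because the start of Get4 or Bag6 held a peak in more libraries than that of any other member, the start of Get3 in the fewest, and the start of Ubl4a lies close to an end of a neighbouring gene. Each is the reference sequence from 250 bases before to 50 bases after a RefSeq transcription start (RefSeq, GRCm38.p6), printed 5′ to 3′ on the strand of the gene. Capitals mark every CCACG, the word of the endoplasmic reticulum stress element that ATF6 and XBP-1 bind, on either strand (CGTGG on the printed strand is a match on the other), and every ACGT, the core of motifs bound by bZIP factors such as XBP-1. They lie at chr5:139252074-139252373 (plus strand) for Get4, chr17:35134963-35135262 (plus strand) for Bag6, chrX:74368499-74368798 (minus strand) for Ubl4a and chr8:85025238-85025537 (minus strand) for Get3.
Get4: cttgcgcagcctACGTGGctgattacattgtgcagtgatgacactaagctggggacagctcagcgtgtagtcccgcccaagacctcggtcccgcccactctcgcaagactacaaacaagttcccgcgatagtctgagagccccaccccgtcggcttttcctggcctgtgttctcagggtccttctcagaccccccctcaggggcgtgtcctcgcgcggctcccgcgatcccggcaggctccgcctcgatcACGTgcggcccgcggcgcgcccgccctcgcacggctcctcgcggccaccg
Bag6: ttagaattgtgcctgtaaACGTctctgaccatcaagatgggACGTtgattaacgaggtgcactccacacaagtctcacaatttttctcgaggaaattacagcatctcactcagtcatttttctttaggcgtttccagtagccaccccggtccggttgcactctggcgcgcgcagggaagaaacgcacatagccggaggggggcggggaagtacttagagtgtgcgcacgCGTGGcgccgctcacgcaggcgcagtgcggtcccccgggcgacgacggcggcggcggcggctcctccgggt
Ubl4a: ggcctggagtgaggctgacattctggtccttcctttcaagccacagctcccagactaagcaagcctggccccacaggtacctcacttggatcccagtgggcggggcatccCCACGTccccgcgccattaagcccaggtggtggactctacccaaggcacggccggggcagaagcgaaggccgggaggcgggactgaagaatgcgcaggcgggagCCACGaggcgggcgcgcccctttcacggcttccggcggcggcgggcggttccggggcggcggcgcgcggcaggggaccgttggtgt
Get3: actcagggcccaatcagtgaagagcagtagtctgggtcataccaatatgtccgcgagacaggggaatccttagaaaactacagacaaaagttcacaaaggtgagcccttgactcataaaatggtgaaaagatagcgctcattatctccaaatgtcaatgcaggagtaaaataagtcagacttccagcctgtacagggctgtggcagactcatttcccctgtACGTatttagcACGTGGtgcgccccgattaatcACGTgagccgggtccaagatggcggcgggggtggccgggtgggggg

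Promoter entries were found for 6 of the 7 members, the exception being Camlg; Get4 and Sgta have 2 entries each, and a member was counted where either entry held a word. All 6 held at least 1 CCACG and 1 ACGT, although the second entry of Sgta held no CCACG. These short words are common: of 21263 single promoters of the same length, each entry counted on its own, 37.4% held CCACG and 33.0% held ACGT on either strand. The overlap of these words, CCACGT, was held by 9.06% of all promoters and by those of 4 members, Get3, Get4, Sgta and Ubl4a; it was looked for after the other motifs had been counted. Counted from +1 at the start, with −1 the base before it, CCACGT began at −238 in Get4, at −140 in Ubl4a and at −18 in Get3. Bag6 held CCACG at −21 and ACGT at −232 and −209, with no CCACGT. The longer words were rarer among the members. TGACGTGG, a word bound by XBP-1 and ATF6, was held by 0.705% of all promoters and by those of 0 members, and TGACGTCA, the cyclic AMP response element, which contains ACGT, by 2.23% of all promoters and by that of Sgta at −30. The endoplasmic reticulum stress element ERSE was held by 0.141% of all promoters, ERSE-II by 0.0517%, and neither by any member. CCAAT, the word of NF-Y that forms the other part of an ERSE, was held by 38.2% of all promoters and, among the members, by Get3, at −241 and −209. A match or its lack describes the letters of these windows and nothing about binding.

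The deposited lists differed widely in length, also within a group, and this bears on every count below. They held 53973 and 19237 peaks in the Fasted libraries, 82975 and 47357 in the Fed libraries, 698 and 30796 in the Ern1-LKO libraries and 6258 and 30327 in the WT libraries, with 4.34M to 17.4M tags kept per library. Ern1-LKO replicate 1 and WT replicate 1 stand apart by their short lists, although 12.0M and 14.1M tags were kept in them. Fasted and Fed lists were called against 1 input library and Ern1-LKO and WT lists against the other, so groups were compared only within each pair. Peaks are not expression, so the tissue label could not be checked from them; for orientation, 6 hepatocyte markers held a peak within 5 kb in both libraries for 0 genes in Fasted, 0 in Fed, 0 in Ern1-LKO and 2 in WT (Alb and Tat), beside 43.2%, 68.8%, 3.54% and 18.3% of all genes.

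In all, 127 peaks lay in the windows of the 7 members, and those that overlapped by at least 1 bp were merged into 47 regions. Of these, 7 lay within 1 kb of a member's own start and held 28 of the 124 region-by-library calls; 2 more lay at the start of Ubl4a and within 1 kb of the neighbour Slc10a3, with 7 calls. A further 5 regions lay at the start of another gene (17 calls), 22 in the body of a member (45 calls) and 11 in a flank (27 calls). The 2 regions found in 7 libraries were both own starts, those of Get4 and Bag6, and 0 regions were found in all 8. At the other end, 21 regions were called in 1 library only, 16 of them in Fed replicate 1, the longest list. The windows of the members together held 25 and 7 peaks in the Fasted libraries, 37 and 19 in the Fed libraries, 0 and 15 in the Ern1-LKO libraries and 3 and 21 in the WT libraries. The window grows with the gene, and the members' median span was 12.2 kb, against 17.2 kb for all genes.

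**Figure D1:**
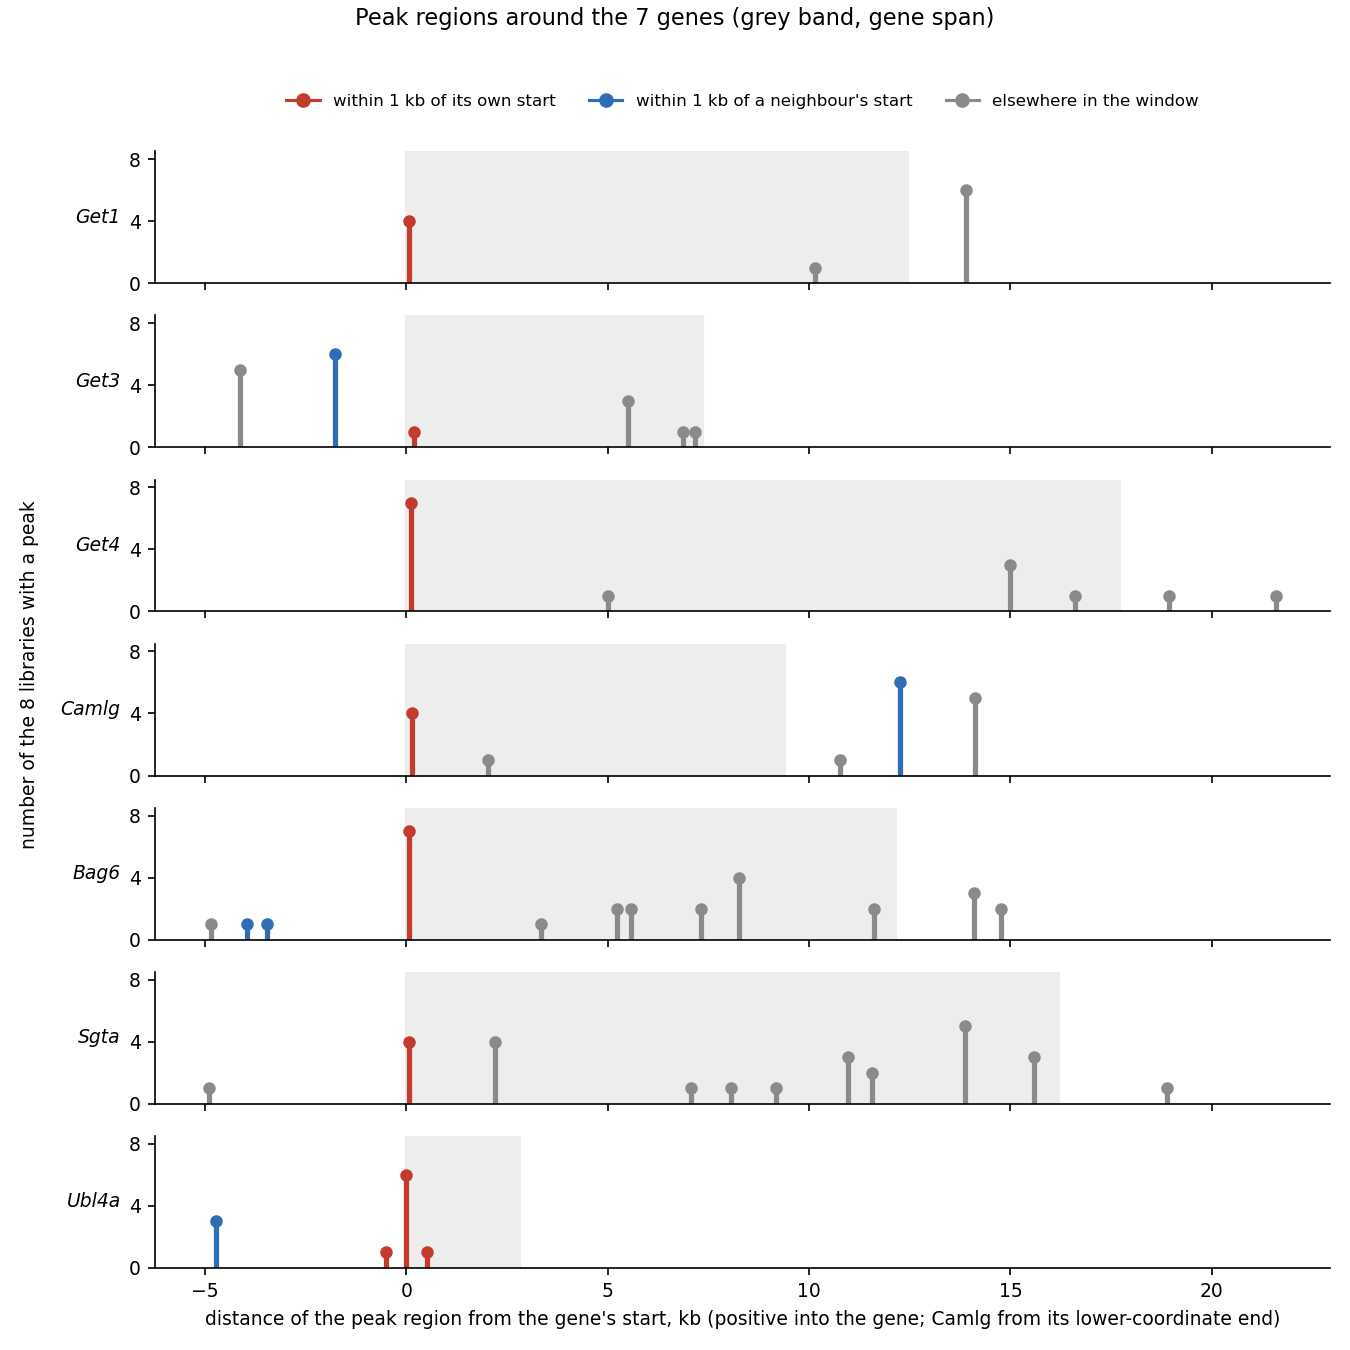
Each stem is a merged peak region around 1 of the 7 genes, placed by its distance in kb from the start of the gene (horizontal axis), and its height is the number of the 8 libraries with a peak there (vertical axis); grey bands are gene spans. Regions at the starts of Get4 and Bag6 were found in 7 libraries, whereas the tallest stems of Get1, Get3 and Camlg, at 6 libraries, lie outside the gene.

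Get4, the adaptor that links the BAG6 complex to GET3 (chromosome 5, 139252324 to 139270050, plus strand), had the start peak of highest fold among the 7 genes in 5 libraries, all those with such a peak except Ern1-LKO replicate 2 and WT replicate 1, where Bag6 was higher. The peak was present in every library except Ern1-LKO replicate 1, with its summit 53 to 185 bp downstream of the start whose promoter is printed above. Its fold enrichment over local background, the authors' value, was 14.2 and 5.47 in the Fasted libraries and 7.67 and 13.8 in the Fed libraries. In the knockout experiment the fold was 9.51 in Ern1-LKO replicate 2, with no peak in replicate 1, against 6.41 and 16.9 in the WT libraries. These values overlapped between the groups of each comparison. By fold, the peak stood in the top 7.10% and 79.7% of the Fasted lists and the top 3.58% and 2.07% of the Fed lists. It stood in the top 26.9% of the list of Ern1-LKO replicate 2, against the top 28.0% and 2.47% of the WT lists. Ranking by −log10 p, which weighs the number of tags as well as the ratio, placed it higher in all 7 lists: the top 2.08% and 41.4% in Fasted and the top 0.816% and 0.792% in Fed. The corresponding places were the top 17.8% in Ern1-LKO replicate 2, against the top 10.4% and 1.17% in WT. These places are set within lists of different lengths and give no order between groups.

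The same peak was the only one of any member among the 698 strongest peaks of a list by −log10 p. Among the 698 peaks of highest −log10 p in each library, 698 being the length of the shortest list, the Get4 start peak was included in both Fed and both WT libraries and in 0 Fasted and 0 Ern1-LKO libraries; the difference of −1.0 members in each comparison had an exact two-sided permutation p of 0.33, the smallest that 2 libraries against 2 can give. Its rank was 1125 and 7962 in Fasted and 677 and 375 in Fed, and 5482 in Ern1-LKO replicate 2, against 653 and 356 in WT. Fed replicate 1 and WT replicate 1 were thus close to the limit of 698. The other 6 members had no peak in this set in any library, although the Bag6 start peak lay close to the limit in WT replicate 1, at rank 815. Of all genes, 1.30% had such a peak in both Fasted libraries, 2.48% in both Fed libraries, 1.86% in both Ern1-LKO libraries and 2.36% in both WT libraries. These shares do not tell how often a gene separates Fed from Fasted, or WT from Ern1-LKO, as Get4 did. The share of all genes with that separation was not counted, so how common it is remains unknown. The pattern of this gene alone gives no effect of feeding or of Ern1. Ranked by fold instead, Get4 was in none of the 8 sets, as described for equal list lengths below.

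Bag6, the scaffold of the chaperone complex (chromosome 17, 35135156 to 35147321, plus strand), had a start peak in the same 7 libraries, 14 to 81 bp downstream of its start. The fold was 9.18 and 4.96 in the Fasted libraries and 6.61 and 5.48 in the Fed libraries. It was 12.7 in Ern1-LKO replicate 2, with no peak in replicate 1, and 7.71 and 11.6 in the WT libraries. Unlike the Get4 peak, the Bag6 peak had a higher fold in Ern1-LKO replicate 2 than in either WT library, and its places in the 2 replicate 2 lists, the top 12.8% in Ern1-LKO and 9.40% in WT, were close. It stood in the top 27.2% and 87.8% of the Fasted lists and the top 7.15% and 67.7% of the Fed lists, so the groups overlapped. Bag6 had more peaks in all than any other member, 30, of which up to 9 lay in 1 library; 6 of its regions lay in its body. Beyond its end, a region within the span of Prrc2a (35149158 to 35149466) was called in 3 libraries with a fold of 12.7 in Ern1-LKO replicate 2 and close to that of the start peak there.

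Ubl4a, the ubiquitin-like subunit of the complex (chromosome X, 74365718 to 74368548, minus strand), is the shortest of the 7 genes, with a span of 2.83 kb. Its start peak was called in 6 libraries, with a fold of 7.24 in Fasted replicate 1 and no peak in Fasted replicate 2, against 3.89 and 8.18 in the Fed libraries. The fold was 6.82 in Ern1-LKO replicate 2, with no peak in replicate 1, against 4.08 and 6.35 in the WT libraries. The Fasted value lay between the Fed values. The value of Ern1-LKO replicate 2 was above both WT values, while replicate 1 had no peak, so the knockout comparison gives no direction. Slc10a3, a solute carrier gene, has an end 669 bp from the start of Ubl4a, and Gm44504 overlaps both, so that the peak list cannot assign this region to 1 of these genes. The peak ranked in the middle of most lists, from the top 26.1% in Fed replicate 2 to the top 78.0% in WT replicate 1.

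**Figure D2:**
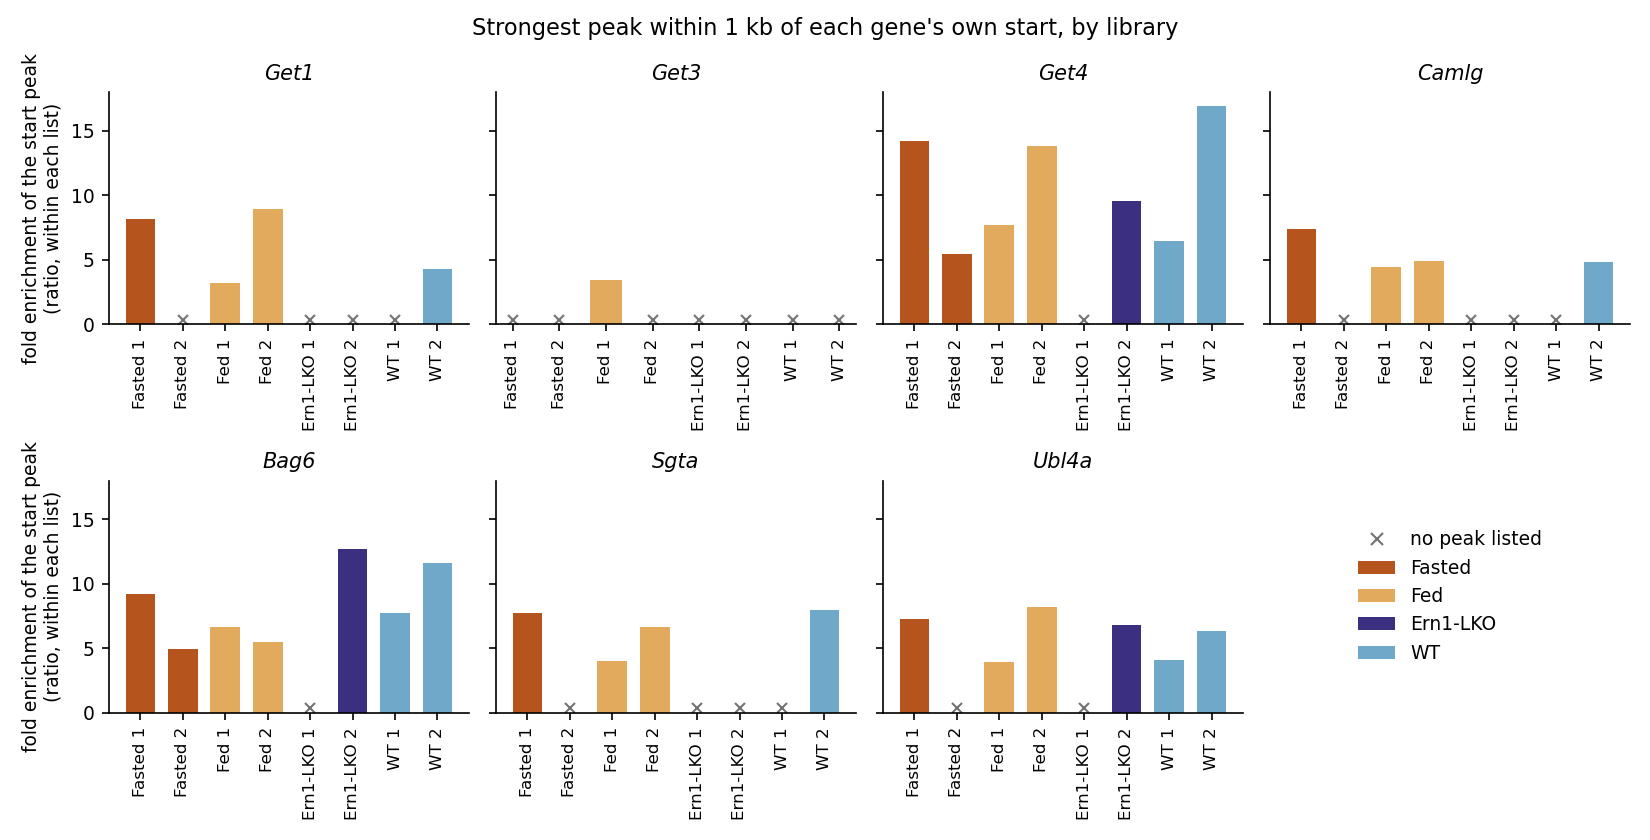
Bars give the authors' fold enrichment (a ratio, vertical axis) of the strongest peak within 1 kb of the start of each gene in each of the 8 libraries (horizontal axis), coloured by group, and a cross marks a library with no such peak. Get4 and Bag6 have a bar in 7 libraries and Get3 in 1; each bar is 1 library, so there are no error bars.

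Sgta, the co-chaperone that receives the protein first (chromosome 10, 81044071 to 81060271, minus strand), had a start peak in 4 libraries. Its fold was 7.71 in Fasted replicate 1, with no peak in Fasted replicate 2, against 4.02 and 6.63 in the Fed libraries. Neither Ern1-LKO library had the peak, against 1 of the 2 WT libraries, replicate 2, at a fold of 7.97 and in the top 29.7% of its list. In no library was its start peak the one of highest fold in the window. A site in the gene body (81046162 to 81046613) was called in 5 libraries, with a fold of 4.86 in Fasted replicate 1 against 4.34 and 7.83 in the Fed libraries, and of 4.47 in Ern1-LKO replicate 2 against 9.0 in WT replicate 2. Another (81057919 to 81058217) was called in 4 libraries, both Fasted, Fed replicate 2 and Ern1-LKO replicate 2, with folds from 5.36 to 8.18.

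Get3, the ATPase at the centre of the pathway (chromosome 8, 85017929 to 85025287, minus strand), had a start peak in Fed replicate 1 only. That peak had a fold of 3.43, a rank of 69739 of 82975, and a summit 203 bp from the start. The promoter printed above holds CCACGT at −18 and both CCAAT words. The peaks of its window lay elsewhere. The region found in the most libraries, 6, lay at the start of Trir, a neighbour on the opposite strand whose start is 1546 bp from that of Get3 (85026657 to 85027480). Its fold was 8.64 and 4.30 in the Fasted libraries and 4.90 and 11.4 in the Fed libraries, and 9.15 in Ern1-LKO replicate 2 against 5.48 in WT replicate 2. A second region within Trir (85029275 to 85029620) was called in 5 libraries, with folds from 3.43 to 9.63.

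For both receptor genes, Get1 and Camlg, the peak of highest fold in the window lay within a neighbouring gene in all 6 libraries with a peak, whereas for Get3 it lay within Trir in 4 of 6 and in the body of Get3 in Fed replicate 1 and WT replicate 2. Get1, the receptor subunit that binds GET3 at the membrane (chromosome 16, 96145400 to 96157852, plus strand), had a start peak in 4 libraries. Its fold there was 8.16 in Fasted replicate 1, with no peak in Fasted replicate 2, against 3.19 and 8.90 in the Fed libraries. There was no start peak in either Ern1-LKO library, against 1 in WT replicate 2 at a fold of 4.26, in the top 92.0% of its list. The leading peak of the window was a site beyond the end of Get1, within the span of the neighbour Lca5l (96159038 to 96159818), and was called in 6 libraries. The fold at this site was 17.4 and 6.88 in the Fasted libraries and 11.7 and 11.6 in the Fed libraries. In the knockout experiment it was 10.5 in Ern1-LKO replicate 2, against 8.38 in WT replicate 2, with no peak in either replicate 1. In Fed replicate 1 it ranked 458 of the list, within the top 0.552%. It raised Get1 to the 97.4th percentile of all genes by leading fold there, although the site lies within another gene.

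Camlg, the partner of GET1 in the receptor (chromosome 13, 55623005 to 55632416), also had a peak near an end of the gene in 4 libraries, 132 to 163 bp inside its lower-coordinate end. The fold was 7.34 in Fasted replicate 1, with no peak in Fasted replicate 2, against 4.41 and 4.90 in the Fed libraries. There was none in either Ern1-LKO library, against 1 in WT replicate 2 at a fold of 4.80. The region found in the most libraries, 6, lay at the start of Ddx46, an RNA helicase gene (55634792 to 55635529). Its fold was 13.6 and 5.16 in the Fasted libraries and 5.11 and 10.3 in the Fed libraries, and 7.75 in Ern1-LKO replicate 2 against 7.08 in WT replicate 2. A second site within Ddx46 (55636972 to 55637284) reached a fold of 14.2 in Fed replicate 2, at rank 826 of the list or the top 1.74%. By position, then, the 7 genes fell into Get4, Bag6 and Ubl4a, with leading peaks mostly at their own starts (in 6 of 7, 7 of 7 and 6 of 6 libraries with a peak), and Sgta, Get3, Get1 and Camlg, with the start peak leading in 0 libraries. Whether these peaks lie in exons, introns or untranslated regions was not analysed here.

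Comparing fasted with fed livers, all or nearly all members had a peak within 5 kb in every library. Most genes did too, except in Fasted replicate 2. In the Fasted libraries 7 and 6 of the 7 members had one, against 73.1% and 43.6% of all genes. In the Fed libraries 7 and 7 had one, against 76.1% and 71.2% of all genes. A peak in both libraries was present for 6 members in Fasted, all except Ubl4a, and for 7 in Fed, beside 43.2% and 68.8% of all genes. The mean was 6.5 ± 0.7 members in Fasted and 7.0 ± 0.0 in Fed (SD, n = 2 libraries each), a difference of −0.5 with an exact two-sided permutation p of 1.0. No member had a peak in both Fasted and neither Fed library (0.0731% of all genes did), nor in both Fed and neither Fasted library (1.20% of all genes).

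Own starts separated the libraries more, and mainly through Fasted replicate 2. A start peak was present for 6 and 2 members in the Fasted libraries, beside 59.2% and 26.9% of all genes, and for 7 and 6 in the Fed libraries, beside 63.9% and 56.8%. In both libraries it was present for 2 members in Fasted, Get4 and Bag6, and for 6 in Fed, all except Get3, beside 26.7% and 54.7% of all genes. The mean was 4.0 ± 2.8 members in Fasted and 6.5 ± 0.7 in Fed (SD, n = 2 libraries each), a difference of −2.5 with an exact two-sided permutation p of 0.67. The 4 members Sgta, Ubl4a, Get1 and Camlg had a start peak in Fasted replicate 1 and both Fed libraries but not in Fasted replicate 2, so the difference between the groups was within the spread between the Fasted libraries. The share of list length in this was not tested; the list of Fasted replicate 2 is the shortest of the 4.

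Comparing Ern1-LKO with WT livers, the count of members followed the lengths of the lists. Within 5 kb, 0 and 7 members had a peak in the Ern1-LKO libraries, beside 3.58% and 62.4% of all genes, and 3 and 7 in the WT libraries, beside 19.6% and 65.0%. A peak in both libraries was present for 0 members in Ern1-LKO and for 3 in WT, Get4, Bag6 and Ubl4a, beside 3.54% and 18.3% of all genes. The mean was 3.5 ± 4.9 members in Ern1-LKO and 5.0 ± 2.8 in WT (SD, n = 2 libraries each), a difference of −1.5 with an exact two-sided permutation p of 1.0. Without Ern1-LKO replicate 1 this difference was 2.0, and without WT replicate 2 it was 0.5, so its sign rests on single libraries. A peak in both WT libraries with none in Ern1-LKO was found for 0 members and 0.896% of all genes, and the reverse pattern for 0 members and 0% of all genes.

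At the starts, 0 and 3 members had a peak in the Ern1-LKO libraries, beside 2.77% and 48.4% of all genes, and 3 and 6 in the WT libraries, beside 11.6% and 53.2%. In both libraries this was 0 members in Ern1-LKO and 3 in WT, beside 2.71% and 10.9% of all genes. The mean was 1.5 ± 2.1 in Ern1-LKO and 4.5 ± 2.1 in WT (SD, n = 2 libraries each), a difference of −3.0 with an exact two-sided permutation p of 0.67. The 3 WT genes were again Get4, Bag6 and Ubl4a, the subunits of the chaperone complex, and the same 3 were the members with a start peak in Ern1-LKO replicate 2. The place of Ubl4a is weak: its peak in WT replicate 1 had a −log10 q of 4.19 and ranked 4881 of 6258. The region also cannot be assigned to Ubl4a alone. At −log10 q of at least 5, 2 members had a peak within 5 kb in both WT libraries. The lists of Ern1-LKO replicate 2 and WT replicate 2 are of like length, so this pair can be set side by side. Their depth was not matched: 4.34M tags were kept in Ern1-LKO replicate 2 and 9.18M in WT replicate 2. With the longer list cut to its 30327 strongest peaks, 3 members had a start peak in Ern1-LKO replicate 2 and 6 in WT replicate 2, beside 47.9% and 53.2% of all genes; the 3 present in WT replicate 2 alone were Sgta, Get1 and Camlg, at folds of 7.97, 4.26 and 4.80. By fold, the start peaks of Sgta, Get1 and Camlg stood in the top 29.7%, 92.0% and 83.3% of the list of WT replicate 2. The comparison sets 1 library against 1 and was chosen after the list lengths were seen. The part of depth in it was not tested. The start peaks of Get4 and Bag6 were called in all libraries but Ern1-LKO replicate 1. A start peak in all those libraries, with or without one in Ern1-LKO replicate 1, was present for 7.68% of all genes.

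**Figure D3:**
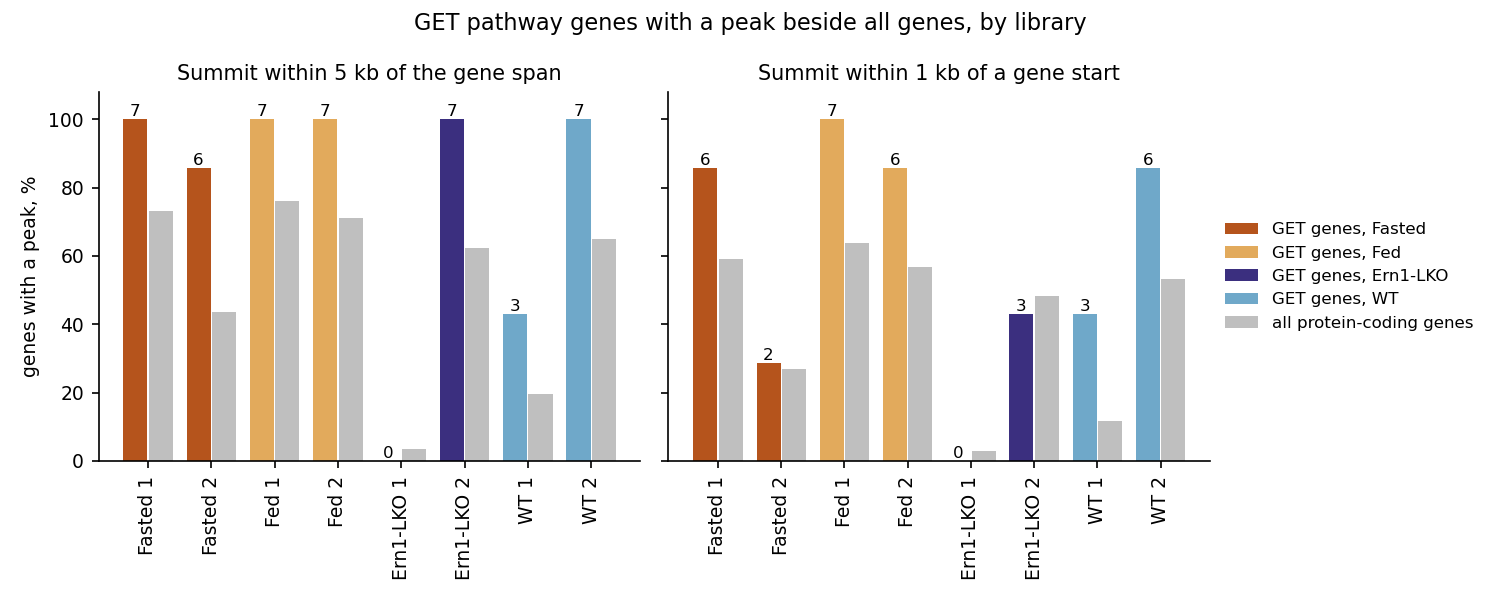
Coloured bars give the percentage of the 7 GET pathway genes with a peak in each library (horizontal axis), with their number above, and grey bars the percentage of all 21887 protein-coding genes, within 5 kb of the gene (left) or within 1 kb of a start (right). Both kinds of bar are lowest in Ern1-LKO replicate 1, where 0 of the 7 genes and 3.58% of all genes had a peak within 5 kb.

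Cutting the lists to equal numbers of peaks left calls near the members or removed nearly all of them, depending on the number. When each list was cut to its 698 peaks of highest fold, 0 and 0 members had one within 5 kb in the Fasted libraries, beside 3.79% and 2.31% of all genes, and 1 and 0 in the Fed libraries, beside 3.89% and 3.76%. The 1 was Get1, through the site within Lca5l. It was 0 and 0 in the Ern1-LKO libraries, beside 3.58% and 3.83% of all genes, and 0 and 0 in the WT libraries, beside 3.29% and 3.94%. The difference was −0.5 members between Fasted and Fed and 0.0 between Ern1-LKO and WT, with an exact two-sided permutation p of 1.0 in both. Cut instead to 19237 peaks, the length of the shortest Fasted or Fed list, 6 and 6 members had a peak within 5 kb in the Fasted libraries, beside 54.3% and 43.6% of all genes, and 6 and 6 in the Fed libraries, beside 53.6% and 53.2%. At 698 peaks, with 7 genes and a background under 4%, fewer than 1 member per library is what the share of all genes would give.

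As a measure that sets no further cut within the list, every gene was placed by the fold of its leading peak as a percentile of all genes. Genes without a called peak were tied at the bottom, so the calling threshold and the length of the list still enter. The members' median percentile was 54.9 and 64.4 in the Fasted libraries, and 47.4 and 85.9 in the Fed libraries. It was 48.2 and 63.8 in the Ern1-LKO libraries and 40.2 and 66.1 in the WT libraries. The median of all genes lay at the midpoint of the scale except where ties at the bottom held it lower, at 28.2 in Fasted replicate 2, 48.2 in Ern1-LKO replicate 1 and 40.2 in WT replicate 1. In Ern1-LKO replicate 1 all 7 members were tied with the genes without a peak. Averaged over the 8 libraries, Get4 was highest, at 78.6, followed by Get1 at 71.8, Bag6 at 66.5, Camlg at 61.4, Get3 at 56.2, Sgta at 53.6 and Ubl4a at 48.7. A gene without a peak entered these means at 48.2 in Ern1-LKO replicate 1 and 40.2 in WT replicate 1. Ubl4a, with a called peak, stood lower in Fed replicate 1, at 29.0. The means are therefore not an order of peak strength. The places of Get1 and Camlg rest on sites within neighbouring genes in every library with a peak, and that of Get3 in most. The leading member changed between libraries: Get1 in Fasted replicate 1 (92.5) and Fed replicate 1 (97.4), Sgta in Fasted replicate 2 (79.3), Camlg in Fed replicate 2 (95.6), Bag6 in Ern1-LKO replicate 2 (80.6) and WT replicate 1 (95.5) and Get4 in WT replicate 2 (95.8). The genes whose percentiles over the 8 libraries lay nearest those of Get4 were Gga2, Gclm and Shroom1, with mean absolute differences of 2.87, 3.09 and 3.32 points. Those nearest Get1 were Timm23 and Parg, both on chromosome 14 and at 1.76 points each, and Poglut1 at 2.17 points.

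Start peaks at 3 related gene lists were counted in the same way. Among 11 cofactors and paralogs of the pathway, a start peak was present in both libraries for 8 genes in Fasted and 10 in Fed, and for 3 in Ern1-LKO and 5 in WT. The backgrounds for these and the following counts are the shares of all genes given above for a start peak in both libraries. The 3 genes with a start peak in all 8 libraries were Hspa8, the constitutive cytosolic HSP70, Dnaja1, one of its J-domain partners, and Ubqln4, a ubiquilin. Hspa8 had folds of 10.6 and 6.14 in the Fasted libraries and 9.08 and 9.35 in the Fed libraries, and of 5.51 and 22.0 in the Ern1-LKO libraries and 4.86 and 20.0 in the WT libraries. The Ern1-LKO and WT values overlapped. Ubl4b, the paralog of Ubl4a, had a start peak in 0 libraries, against 6 for Ubl4a.

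The second list held 30 tail-anchored proteins of the secretory pathway, some of which the GET route can deliver. Of the 30, 11 had a start peak in both libraries in Fasted and 24 in Fed, and 3 in Ern1-LKO and 14 in WT. Serp1, a small tail-anchored protein of the translocon, had one in all 8 libraries, with folds of 20.2 and 13.9 in the Fasted libraries and 28.7 and 43.3 in the Fed libraries. In the knockout experiment the Serp1 folds were 8.77 and 27.1 in the Ern1-LKO libraries, against 25.5 and 57.9 in the WT libraries. Both Fed libraries were above both Fasted libraries, whereas the Ern1-LKO and WT values overlapped. How many of all genes separate Fed from Fasted in this way was not counted. Folds rank peaks within a list, so the order for this gene alone gives no effect of feeding. Ube2j1, a tail-anchored ubiquitin-conjugating enzyme of endoplasmic-reticulum-associated degradation, also had one in all 8, at 28.1 and 13.1 in the Fasted libraries, 17.7 and 24.6 in the Fed libraries, 7.08 and 31.0 in the Ern1-LKO libraries and 21.9 and 47.3 in the WT libraries. For Ube2j1 the values overlapped in both comparisons. Serp1 ranked between 29 and 870 in its lists, where the start peak of Get4 ranked between 749 and 15326 by fold. Within 5 kb, Sec22b and Stx18, SNARE proteins of traffic between the endoplasmic reticulum and the Golgi, had a peak in both WT libraries and none in Ern1-LKO, as did 0.896% of all genes. In Ern1-LKO replicate 1, the shortest list, 5 of the 30 had a peak within 5 kb (Sec61b, Sec61g, Serp1, Stx5a and Ube2j1), against 0 of the 7 pathway genes and 3.58% of all genes.

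Among 13 tail-anchored proteins of mitochondria and peroxisomes, which mostly reach their membranes by other routes, a start peak was present in both libraries for 4 in Fasted and 12 in Fed, and for 0 in Ern1-LKO and 1 in WT. None had a peak in Ern1-LKO replicate 1. No gene of the 3 lists had a peak in both Fasted and neither Fed library, in both Fed and neither Fasted library, or in both Ern1-LKO libraries with none in WT. The lists were not tested against each other. Markers of the other cells a liver sample can hold were counted in the same way within 5 kb, where a peak in both libraries was present for 43.2% of all genes in Fasted, 68.8% in Fed, 3.54% in Ern1-LKO and 18.3% in WT. Both libraries held a peak at 1 of 6 Kupffer cell genes in Fasted and 3 in Fed, and at 3 of 6 endothelial genes in Fasted and 4 in Fed. For stellate cells it was 2 of 6 in Fasted and 4 in Fed, for cholangiocytes 2 of 6 in Fasted and 3 in Fed, and for lymphocytes 4 of 5 matched genes in Fasted and 3 in Fed. In Ern1-LKO 0 genes of these 5 lists had a peak in both libraries, against 1 lymphocyte gene in WT. Their part in the results above was not tested.

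**Figure D4:**
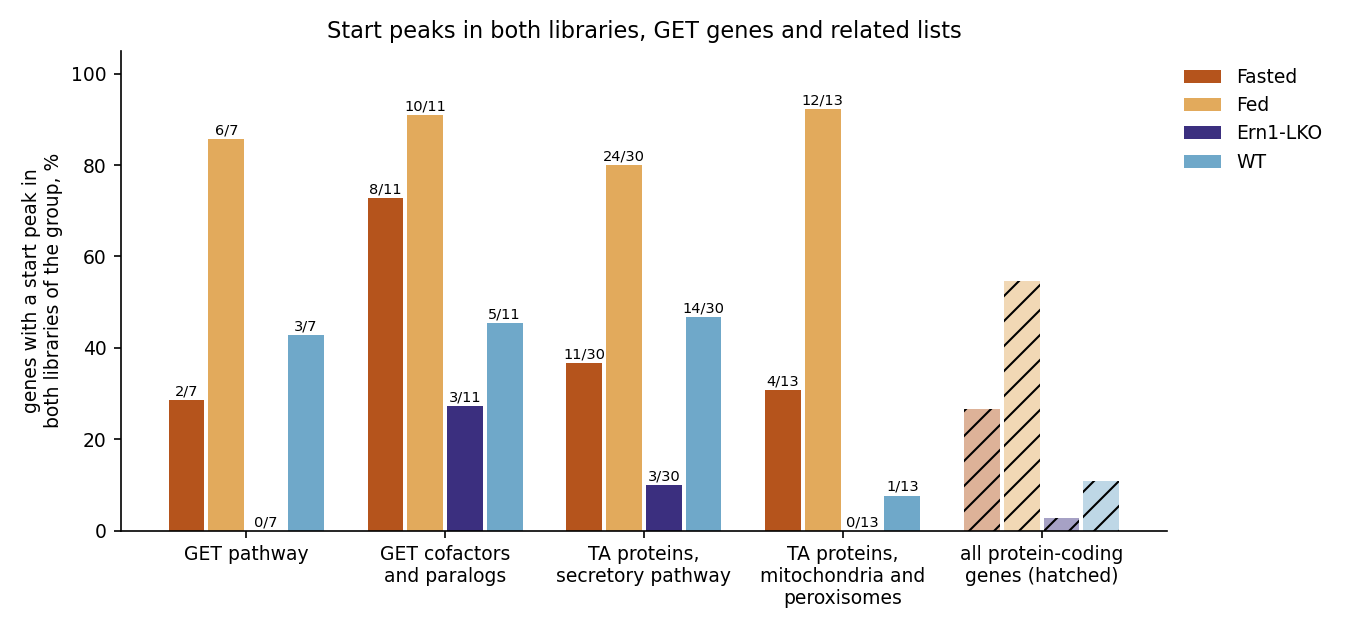
Bars give the percentage of genes of each list (horizontal axis; TA, tail-anchored) with a peak within 1 kb of a start in both libraries of a group, coloured by group, with the count above; hatched bars give all protein-coding genes. In Ern1-LKO the count is 0 of 7 GET pathway genes, 3 of 11 cofactors and paralogs, 3 of 30 secretory and 0 of 13 mitochondrial and peroxisomal proteins, beside 2.71% of all genes.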

How the data were processed

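XBP-1 occupancy was measured by ChIP-seq in liver, with 8 immunoprecipitated libraries and 2 inputs. The build was mm10 and the tools were Bowtie2 2.2.5, MACS2 2.2.1, FastQC 0.11.3 and bcl2fastq, per the submitters' processing notes. Per the file headers, MACS 2.1.1.20160309 called narrow peaks at a q cutoff of 0.05 from single-end tags, keeping 1 tag per position. The authors deposited 12 peak lists, 1 per library and 1 per pooled group. They hold a pileup signal deposited by the authors, a fold enrichment that is the authors' ratio to local background, and the authors' −log10 p-value and q-value. These values describe and rank peaks within a list only. The pooled lists entered 1 alternative.

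A peak was assigned to each of 21887 RefSeq protein-coding genes (GRCm38.p6) where its summit lay within 5 kb of the gene span. Start peaks lay within 1 kb of a RefSeq start. Starts came from promoter entries for 17492 genes, and for the others, Camlg included, either gene end counted. The leading peak is that of highest fold. Neighbours were named where they held a leading peak, and Prrc2a after its values were seen. Lists were compared whole and cut to 698 peaks. Counts of members were compared with exact two-sided permutation tests over libraries, with a smallest possible p of 0.33. The counting was tested on simulated data. Python 3.11.15, pandas 2.3.3, NumPy 2.4.6 and matplotlib 3.10.9 were used. Alternatives covered windows, thresholds, ranking, list length, pooled lists, a replicate block and each library left out. The members and gene lists were chosen with earlier results of these data known. No genome sequence or exon annotation was used, and reads and coverage were not analysed here.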

Additional observations from a re-analysis of the deposited data

How the results depend on the processing

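No difference could pass a threshold of 0.05 in this design, so what follows concerns sizes and directions. The Fasted minus Fed difference within 5 kb was −0.5 members; it was −2.5 for start peaks, −2.0 with a 1 kb flank or at −log10 q of at least 10, −1.0 at a fold of at least 5, 0.0 at −log10 q of at least 5 and −1.0 to 0.0 with a library left out, 0.0 without Fasted replicate 2. Among equal numbers of top peaks it was also −0.5, −1.0 when ranked by −log10 p, and 0.0 with a 1 kb flank, with start peaks alone or at the 19237 peaks of the shortest list of that comparison, and −1.0 to 0.0 with a library left out, 0.0 without Fed replicate 1. The Ern1-LKO minus WT difference within 5 kb was −1.5; it was −3.0 for start peaks, −2.5 with a 1 kb flank, −2.0 with a 10 kb flank or at −log10 q of at least 10 and −1.0 at −log10 q or fold of at least 5. It ranged from −5.0 to 2.0 with a library left out, turning to 2.0 without Ern1-LKO replicate 1 and to 0.5 without WT replicate 2. Chosen after seeing the data, replicates 2 alone gave 0.0, and −3.0 for start peaks at equal list length. Among top peaks this difference was 0.0, also with any library left out, and −1.0 when ranked by −log10 p.

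Members with a peak in both libraries numbered 6 in Fasted, 7 in Fed, 0 in Ern1-LKO and 3 in WT. In Fasted the count was 3 with a 1 kb flank, 2 for start peaks, 2 at −log10 q of at least 10 and 4 at a fold of at least 5. It was 0 among equal top peaks and 6 to 7 with a library left out. In Fed it was 6 for start peaks, at −log10 q of at least 5 or 10 and at a fold of at least 5. It was 0 there among equal top peaks and 7 to 7 with a library left out. In Ern1-LKO it was 6 in the pooled list and 0 to 7 with a library left out, 7 without replicate 1. In WT it was 4 with a 10 kb flank and 2 at −log10 q of at least 5 or 10 or at a fold of at least 5. The WT count was 7 in the pooled list, 0 among equal top peaks and 3 to 7 with a library left out, 7 without replicate 1. Fewer peaks or a narrower window lower such counts by construction; other causes were not tested.

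With the replicate number as a block, the differences were −0.5, −0.5, −1.5 and 0.0, each with an exact permutation p of 1.0 where 0.5 is the smallest possible. Deviations of same-numbered libraries correlated at 0.12 across genes for Fasted with Fed and at 0.64 for Ern1-LKO with WT, over 2 pairs each. No label says that a number marks a shared batch or animal, and 2 pairs are too few to decide it from the data. A gene without a peak may hold signal under the threshold.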
